A study of Homo sapiens with 24 samples.

Results

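The subject is a set of 100 genes whose labelled RNA was lost fast in U2OS cells, a human osteosarcoma line. Several well known families of early-response genes were left out by name, but other early-response genes remained in the set. The 100 genes were chosen by a rule on measured values. TPM, a level per transcript length that adds up to the same total in each library, was summed per gene, and 10385 of the 25341 genes in the table averaged 5 TPM or more across 24 libraries. Of these, 836 were left out by name (the FOS, JUN, EGR, IER, KLF, DUSP, SPRY, SERTAD, HIST, ZNF, ZBTB and HOX families, and noncoding RNAs with names starting SNOR, SNAR, MIR or LINC or holding the antisense mark -AS), which left 9549. In the uninduced arm log2 of (TPM + 1) at 6 h minus the same at 0 h was taken in each replicate, the larger of the 2 values was the score, and the 100 lowest scores made the set.

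The cells carried a custom tetracycline-off switch for Tob2-S254D, a phosphomimetic mutant of TOB2. TOB2 belongs to a family of antiproliferative proteins that bring a deadenylase to mRNA. In the induced arm doxycycline was left out of the medium, and in the uninduced arm it was added, so the mutant and the absence of the drug cannot be told apart. RNA was labelled with bromouridine (BrU) and chased for 0, 0.5, 1, 2, 4 or 6 h, and the labelled part of the cytoplasmic RNA was taken with an antibody and sequenced. Each arm and time had 2 libraries, called replicate 1 and replicate 2, which gives 12 libraries per arm. Nothing in the labels says that the replicates were separate cultures, so p-values measure only the spread between these libraries, which may be technical. The stable line is 1 line carrying the cells' own TOB2 as well as the mutant, whose reads the table does not separate.

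An mRNA of high turnover reaches a new level soon after its transcription changes, and short-lived mRNAs are typical of regulators such as transcription factors, signalling inhibitors and apoptosis proteins. After a pulse of label, the labelled copies of such an mRNA disappear during the chase while those of stable mRNAs persist. Loss of an mRNA often starts with shortening of its poly(A) tail by the CCR4-NOT complex, which can be brought to the mRNA by RNA-binding proteins such as ZFP36 or by proteins of the BTG/TOB family.

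Since all libraries have 1 total, a value is a share of the captured RNA, and a loss common to all RNAs leaves no trace in it. Export of labelled RNA to the cytoplasm after the pulse and loss of RNA act together on these shares, and fewer cells holding an RNA cannot be told apart from less RNA per cell. Depth was unknown. TOB2 stood at 499 to 725 TPM in induced libraries, against 92.3 to 267 TPM in uninduced libraries, with no overlap. Of the osteoblast and mesenchymal markers, 4 of 10 had a mean of at least 1 TPM, summing to 359.8 to 985 TPM in induced and 402 to 860.3 TPM in uninduced libraries. VIM, RUNX2, COL1A1 and BGLAP were present, while IBSP and TWIST1 were at 0 in every library and SP7, ALPL, COL1A2 and SPP1 were near 0. Epithelial markers (3 of 7, mainly the keratins KRT8 and KRT18, with EPCAM at 0) summed to 1769 to 4191 TPM in induced and 1741 to 2894 TPM in uninduced libraries. Leukocyte markers (3 of 6, mainly LYZ, with PTPRC and CD3E near 0) summed to 24.5 to 72.1 TPM in induced and 21.0 to 52.4 TPM in uninduced libraries, and endothelial markers (2 of 4) to at most 5.20 TPM in induced and 5.21 TPM in uninduced libraries. The noncoding RNAs RMRP, MIR6723 and RPPH1 together took 27.5% of the TPM in each of the induced replicate 2 libraries at 0 h and 0.5 h, more than in any other library. What this share did to the values below was not tested beyond leaving out these RNAs or libraries.

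The label of the set, fast-lost mRNAs outside the classic early families, held in part. Of the members, 94 are protein-coding and 6 are noncoding RNAs, namely RNU6ATAC, SCARNA8, SCARNA4, NEAT1, LOC284801 and LOC284454. The last of these, with LOC284801, are now named MIR23AHG and MIR663AHG in RefSeq (GRCh38.p14), hosts of microRNAs that the exclusion by name did not catch under their older symbols. Many early-response genes also remained, since 15 members, ATF3, MYC, NR4A1, ID1 and HES1 among them, are on a list of 48 measured early-response transcription regulators. Other members carry older symbols too: FAM46B is now TENT5B, GSG2 is HASPIN, C17orf59 is BORCS6 and C8orf4 is TCIM.

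The values that chose the set are given as a description. KTI12 had the lowest score, -4.59 on the log2 scale, followed by RNU6ATAC (-4.53), TBCC (-4.23), BTG2 (-4.07), SOCS3 (-4.05), ZFP36 (-4.04), LENG9 (-3.96), TRIB1 (-3.94), CHAC1 (-3.91) and PPP1R3C (-3.81). At the other end the scores ran on without a gap. PLEKHF2, GCC1 and PTGER4 were the last inside the set, at -2.15, -2.15 and -2.14, while C6orf47, HILPDA and FAM110B fell just outside at -2.14, -2.14 and -2.12. Together the members held 2.85% and 2.83% of the TPM at 0 h and 0.271% and 0.252% at 6 h in induced libraries, against 2.81% and 2.83% at 0 h and 0.417% and 0.354% at 6 h in uninduced libraries.

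The rule did not use gene structure. Among the coding members, 72 of 94 (76.6%) had a single transcript in the table, against 4270 of 9138 coding genes (46.7%) among the eligible ones. Several, such as KTI12, TBCC, RNF113A, RHOB, HPS6, MOCS3 and DDX28, are known as genes whose protein is encoded without introns. No member shared identical values with another gene. The deposited notes do not say whether strand was used in counting, and 19 members overlap a protein-coding gene in RefSeq, among them KTI12 with TXNDC12, LENG9 with LENG8, PELO with ITGA1 and GSG2 with ITGAE, so reads of such pairs may not be told apart.

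Promoters are shown for 5 members on which the results below turn: KTI12, with the lowest score, ZFP36, with the early fall, LENG9, with the lowest level difference between the arms, ID3, with the smallest p for a slope difference, and BHLHE40, a coding member that was higher after induction. Each is a window of 300 bases around the start of the gene, most of it upstream, in RefSeq's GRCh38.p14, 5′ to 3′ on the strand of the gene, and capitals mark GGGCGG and CCAAT on either strand.
KTI12 (chr1:52033761-52034060, minus strand): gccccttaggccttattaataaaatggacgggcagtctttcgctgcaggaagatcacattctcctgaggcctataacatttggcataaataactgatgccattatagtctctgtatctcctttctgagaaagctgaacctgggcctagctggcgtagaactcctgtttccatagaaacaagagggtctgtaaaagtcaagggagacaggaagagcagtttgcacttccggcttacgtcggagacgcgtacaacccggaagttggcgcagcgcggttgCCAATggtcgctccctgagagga
ZFP36 (chr19:39406597-39406896, plus strand): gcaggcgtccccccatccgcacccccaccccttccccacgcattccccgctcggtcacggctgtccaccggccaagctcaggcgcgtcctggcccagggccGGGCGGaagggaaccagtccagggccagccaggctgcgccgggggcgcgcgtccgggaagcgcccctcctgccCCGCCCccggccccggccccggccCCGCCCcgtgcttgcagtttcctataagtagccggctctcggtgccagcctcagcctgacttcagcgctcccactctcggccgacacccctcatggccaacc
LENG9 (chr19:54463729-54464028, minus strand): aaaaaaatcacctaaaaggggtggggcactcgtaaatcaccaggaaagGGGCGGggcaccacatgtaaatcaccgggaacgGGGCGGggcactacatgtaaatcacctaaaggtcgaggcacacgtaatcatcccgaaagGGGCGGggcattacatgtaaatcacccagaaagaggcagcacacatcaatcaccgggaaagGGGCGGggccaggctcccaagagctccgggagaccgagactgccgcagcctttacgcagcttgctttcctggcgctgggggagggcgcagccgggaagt
ID3 (chr1:23559452-23559751, minus strand): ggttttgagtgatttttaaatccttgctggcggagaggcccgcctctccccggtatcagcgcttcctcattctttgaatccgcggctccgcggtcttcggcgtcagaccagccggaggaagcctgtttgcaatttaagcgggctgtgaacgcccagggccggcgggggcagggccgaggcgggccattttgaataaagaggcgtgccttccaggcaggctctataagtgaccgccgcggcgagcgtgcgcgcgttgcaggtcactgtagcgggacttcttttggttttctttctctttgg
BHLHE40 (chr3:4979187-4979486, plus strand): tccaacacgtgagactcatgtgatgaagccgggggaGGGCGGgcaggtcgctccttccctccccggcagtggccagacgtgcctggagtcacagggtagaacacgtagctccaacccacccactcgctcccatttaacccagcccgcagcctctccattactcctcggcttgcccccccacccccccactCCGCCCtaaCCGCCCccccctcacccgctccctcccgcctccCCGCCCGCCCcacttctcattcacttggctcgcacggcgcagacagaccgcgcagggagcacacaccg

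Neither marked motif was in all 5 promoters. KTI12 held 1 CCAAT and no GGGCGG, ZFP36 held 3 GGGCGG, LENG9 held 4 and BHLHE40 held 5, and ID3 held neither. Promoters in RefSeq were found for 73 members and for 7738 eligible genes. Motifs were searched as exact letters on both strands, as a description only. GGGCGG was in 74% of the members' promoters, against 72.2% of the eligible genes' and 44.6% of all promoters. CCAAT was in 46.6% of the members' promoters, 37.4% of the eligible genes' and 35.7% of all. The cyclic AMP element TGACGTCA was in 2.74% of the members' promoters, 3.52% of the eligible genes' and 1.98% of all promoters, the E-box CACGTG in 11% of the members', 10.9% of the eligible genes' and 7.44% of all promoters, and TATAAA in 4.11% of the members', 5.01% of the eligible genes' and 11.9% of all promoters. The shorter cyclic AMP letters TGACG, which TGACGTCA also holds, were in 37% of the members' promoters, 36.1% of the eligible genes' and 25% of all. The AP-1 letters TGACTCA or TGAGTCA were in 5.48% of the members' promoters, 2.68% of the eligible genes' and 4.92% of all, which is 4 members. The median GC content was 65% for the members, 65.7% for the eligible genes and 58.3% for all promoters. The NRF1 core motif was in no member's promoter, against 2.67% of the eligible genes' and 1.36% of all, and the CArG box was in none, against 0.982% of the eligible genes' and 1.28% of all.

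The first question was whether the loss seen in the 4 libraries that chose the set was also there in libraries the rule did not use. In the induced arm a straight line on hours of chase gave each gene's slope in log2 of (TPM + 1) per hour, as a change in share, tested with limma and adjusted by the Benjamini-Hochberg method over 13416 genes. Of the 100 members 97 fell, while 27.9% of all genes fell and 40.0% rose, and no member rose. The median slope was -0.58 log2 per hour over the members and 0.03 over all genes tested. The exceptions were RNU6ATAC, SCARNA4 and SCARNA8, with slopes of -0.42, -0.33 and -0.13 (adjusted p = 0.155, 0.118 and 0.475 in limma). In uninduced libraries at 0.5 to 4 h, which the rule did not use either, 97 members fell, while 13.7% of all genes fell. Their median slope was -0.49 log2 per hour, against 0.05 over all genes. Over the same 0.5 to 4 h in induced cells 97 members fell, where 21.9% of all genes fell, with a median of -0.64 log2 per hour. In the uninduced libraries the same 3 noncoding RNAs missed the threshold. Without the induced 0 h and 0.5 h libraries of replicate 2, 98 members fell in the induced arm. The share of all genes falling was not counted in that fit.

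**Figure D1:**
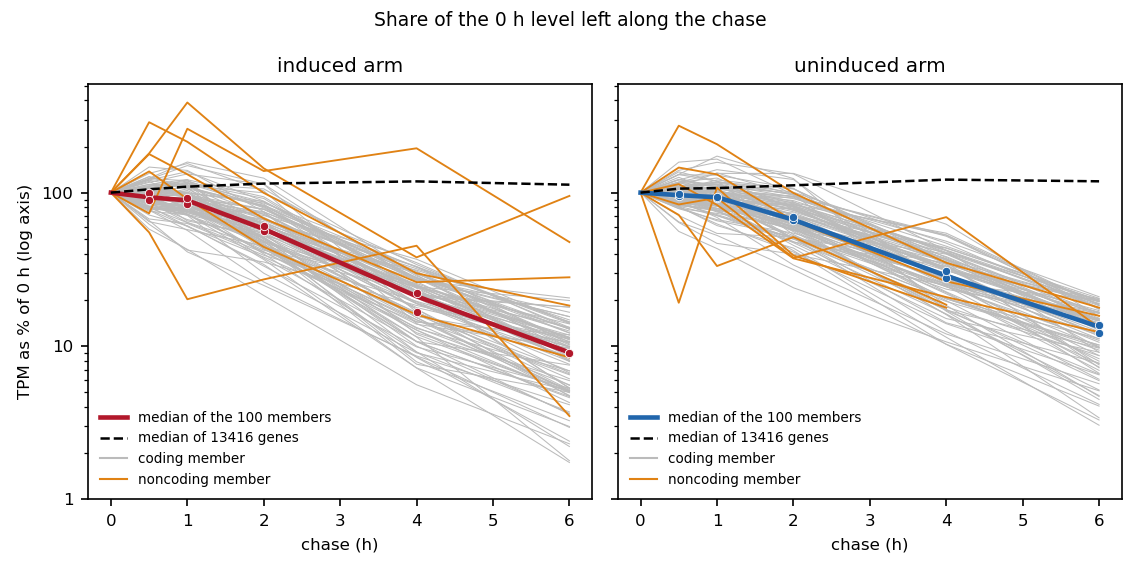
Share of the 0 h level left in each member (mean of 2 libraries, % on a log axis) against hours of chase, in the induced arm on the left and the uninduced arm on the right. Coloured lines and points give the median of the members and of each replicate, and the dashed line gives all 13416 genes. Values of 0 at 6 h cannot be drawn on a log axis. The members' median ended at 9.05% in the induced and 13.3% in the uninduced arm at 6 h, while the dashed line stayed above 100%.

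The loss was not even along the chase. At 0.5 h a median of 93.2% of the 0 h level was left in the induced and 96.3% in the uninduced arm, and at 1 h 89.0% in the induced and 93.3% in the uninduced arm. At 2 h 58.0% was left in the induced and 66.5% in the uninduced arm, at 4 h 21.1% in the induced and 28.7% in the uninduced arm, and at 6 h 9.05% in the induced and 13.3% in the uninduced arm. Both induced libraries were above their own start at 0.5 h for 20 members, and both uninduced libraries for 30. At 4 h 97 members had less than 50% left in both induced libraries, and 89 in both uninduced libraries. Such counts were not made over all genes. The median left over all genes was 105% in the induced and 106% in the uninduced arm at 0.5 h, so a value above the start was common then. At 4 h the median over all genes was 118% in the induced and 122% in the uninduced arm. The median rate between neighbouring times was strongest from 2 to 4 h, at -0.77 log2 per hour in the induced and -0.61 in the uninduced arm. In replicate 2 of the uninduced arm it was about the same from 2 to 4 h (-0.623) and from 4 to 6 h (-0.624). The 0 h and 6 h values of the uninduced arm are those that chose the set.

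Over the first hour of chase in induced cells, 1 member fell past the threshold and none rose, while 0.0596% of all genes fell and 0.0894% rose. That member was ZFP36, with a change of -1.26 on the log2 scale (SE 0.136, adjusted p = 0.00647 in limma). A fall of this size was not particular to ZFP36, since the lowest change among the members was -1.31. In induced group means at 1 h, ZFP36 had 41.1% of its 0 h level left, NR4A1 42.2% and BTG2 42.6%. At an unadjusted p under 0.05, 26 members had a negative and 5 a positive change over this hour, as had 344 and 1514 of all 13416 genes. The members' median was -0.17, against 0.12 over all genes, and it was -0.32 under quantile normalization, where the median of all genes was 0.001, -0.28 under median-of-ratios scaling (0.02 over all genes) and -0.26 without the induced 1 h library of replicate 2. The members' median was -0.27 without RMRP, MIR6723 and RPPH1 and -0.28 with protein-coding transcripts only, with 0.02 over all genes in each. The count of members falling was 2 with a pseudocount of 5 or median-of-ratios scaling, and 4 under quantile normalization or with protein-coding transcripts only. With the replicate number as a block it was 10. Under these alternatives calls over all genes were not counted, so no share stands beside these counts. ZFP36 missed the threshold when the induced 0 h library of replicate 2 or the induced 1 h library of replicate 1 was left out, with changes of -1.14 and -1.24. Later in the chase nearly all members fell. Between 2 h and 6 h 97 members fell in induced cells, with a median change of -2.53, against a median of 0.001 over all genes, of which 20.6% fell and 18.9% rose.

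The second question was whether the members stood at another level in induced cells. Averaged over 0.5, 1, 2 and 4 h, in libraries that the rule did not use, 57 members were lower and 2 were higher in induced than in uninduced cells, while 5.52% of all genes were lower and 5.57% were higher. The median difference, induced minus uninduced, was -0.32 on the log2 scale over the members and 0.06 over all genes. In 85 members the difference was negative in both replicate series, in 9 it was positive in both, and in 6 the series differed in sign. Signs per series were not counted over all genes, but 91 members lay below the median difference of all genes. The count of lower members was between 43 and 59 when 1 library was left out in turn. Under the other alternatives it was between 48 and 68. The 68 came from the fit over all 6 times, which includes the libraries of the rule. In that fit 68 members were lower and 5 higher, where 11.4% of all genes were lower and 14.3% higher. Nothing is read from these counts. Under the remaining alternatives calls over all genes were not counted. The 2 higher members over 0.5 to 4 h were the noncoding NEAT1 and the transcription factor BHLHE40, and 4 were higher without the induced 0.5 h library of replicate 2.

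**Figure D2:**
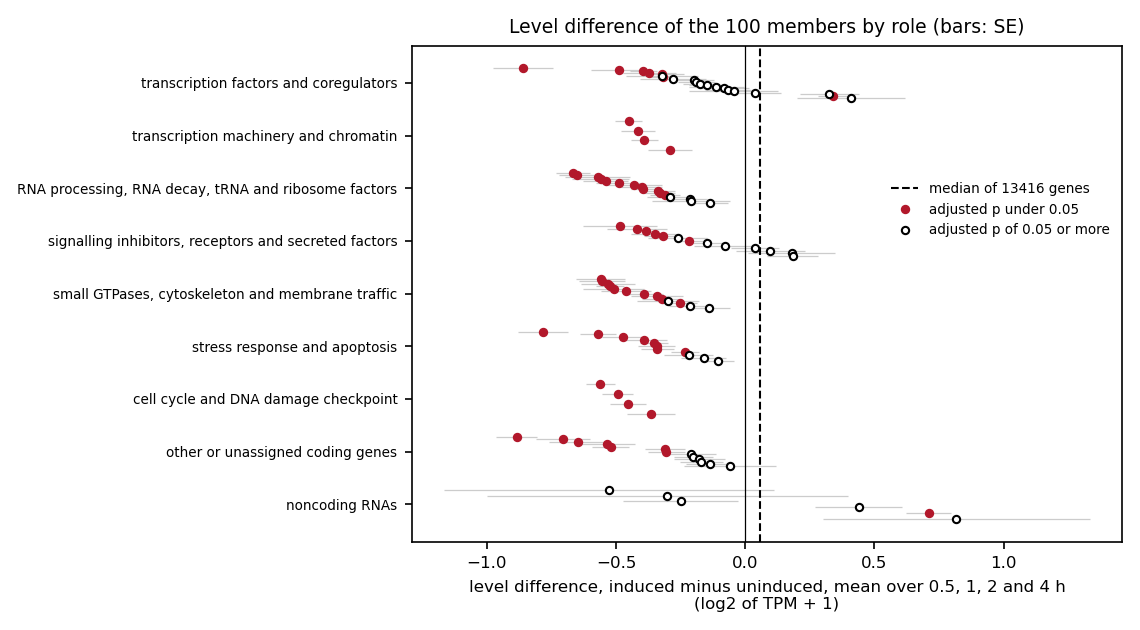
Level difference of each member, induced minus uninduced, as the mean over 0.5, 1, 2 and 4 h in log2 of (TPM + 1), by role. Filled points passed an adjusted p of 0.05, open points did not, bars are standard errors, and the dashed line is the median of all 13416 genes. Most filled points lie below 0, with LENG9 and CITED4 lowest at -0.89 and -0.86, and NEAT1 (0.71) and BHLHE40 (0.34) are the filled points above 0.

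Time by time, the members' median difference was further from 0 at 2 h and later than before. Both induced libraries were below both uninduced libraries for 46 members at 0 h, where this held for 10.9% of all genes, for 49 at 0.5 h (17.1% of all genes), for 49 at 1 h (9.91%), for 69 at 2 h (13.9%), for 77 at 4 h (23.1%) and for 76 at 6 h (28.4%). Both induced libraries were above for 11, 11, 10, 7, 2 and 6 members at these times, where this held for 16.2%, 21.6%, 23.3%, 30.6%, 25.5% and 31.3% of all genes. The members' median difference was -0.11 at 0 h, -0.19 at 0.5 h, -0.17 at 1 h, -0.33 at 2 h, -0.62 at 4 h and -0.45 at 6 h on the log2 scale. The comparisons at 0 h and 6 h use the uninduced libraries that chose the set and are a description.

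**Figure D3:**
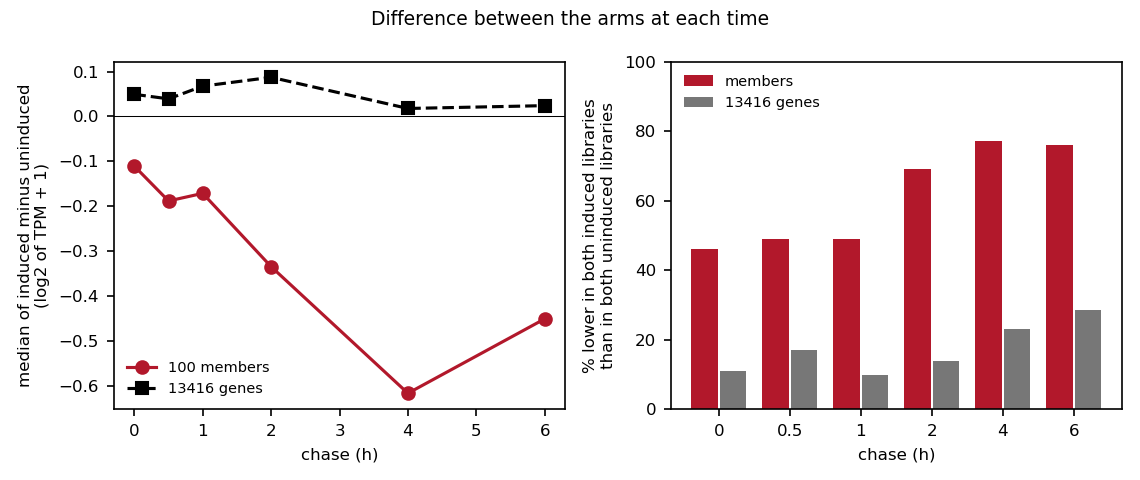
Left, median difference between the arms, induced minus uninduced, in log2 of (TPM + 1), for the 100 members (circles) and all 13416 genes (squares) against hours of chase. Right, percent of members (left bar of each pair) and of all genes (right bar) that were lower in both induced libraries than in both uninduced libraries at that time. The members' median was lowest, at -0.62, at 4 h, and their bars stand above those of all genes at each of the 6 times.

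Whether the members were also lost faster in induced cells was tested as the slope difference over 0.5 to 4 h, induced minus uninduced. No member passed the threshold, and neither did any of the 13416 genes (0.0% called in either direction). The estimate was negative in 94 of 100 members, with a median of -0.14 log2 per hour over the members and -0.01 over all genes. In 93 members it lay below the median of all genes, and its sign was not counted over all genes. The members' median was -0.06 without the induced 4 h library of replicate 1, -0.08 with replicate 2 alone, -0.20 with replicate 1 alone and -0.08 over 0 to 6 h. At an unadjusted p under 0.05, 34 members had a negative and 0 a positive difference, against 946 and 267 of all genes. The members with the smallest p were ID3 (-0.39, adjusted p = 0.181), RNF113A (-0.27, adjusted p = 0.255) and LIPT1 (-0.20, adjusted p = 0.297 in limma). Over 0 to 6 h, where the uninduced 0 h and 6 h libraries chose the set, 4 members had a negative difference past the threshold, namely ID3 (-0.34), CITED4 (-0.27), RHOB (-0.19) and ING1 (-0.17), where 0.335% of all genes were lower and 0.00745% higher, and nothing is read from that count.

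Transcription factors and coregulators were the largest role, with 20 members, a grouping made after the members were known. All 20 fell in the induced arm and in the uninduced arm at 0.5 to 4 h, and in level 6 were lower and 1 was higher in induced cells. Over all genes 27.9% fell in the induced arm and 13.7% in the uninduced arm at 0.5 to 4 h. In level 5.52% of all genes were lower and 5.57% higher. The set was chosen for loss and all 94 coding members fell in both arms, so falling is not particular to any role, here or below. In level 57 of the 100 members were lower, so a share above that of all genes is not particular to any role either. ID1 and ID3 are proteins that bind basic helix-loop-helix factors and keep them from DNA. In induced libraries ID3 had 1307 and 1358 TPM at 0 h, 1372 and 1118 at 0.5 h, 1382 and 1370.0 at 1 h, 745 and 834 at 2 h, 195 and 212 at 4 h and 65.4 and 69.3 at 6 h (replicate 1, then replicate 2, here and below). In uninduced libraries ID3 had 1125 and 1081 TPM at 0 h, 1222 and 1354 at 0.5 h, 1277 and 1235 at 1 h, 1047 and 1013 at 2 h, 502 and 484 at 4 h and 239.6 and 193 at 6 h. The induced values were above the uninduced ones at 0 h and 1 h and below them from 2 h on, and the level difference over 0.5 to 4 h was -0.40 (SE 0.0524, adjusted p = 0.0011). ID1 had a slope of -0.81 per hour on the log2 scale in induced cells (SE 0.0516, adjusted p = 2.5e-08) and did not pass in level (-0.08, adjusted p = 0.605).

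CITED2 and CITED4 are coregulators that bind the acetyltransferases CBP and p300. In induced libraries CITED4 had 292 and 329 TPM at 0 h, 249 and 294 at 0.5 h, 289 and 290.4 at 1 h, 159 and 197 at 2 h, 48.4 and 59.4 at 4 h and 15.7 and 18.6 at 6 h. In uninduced libraries CITED4 had 383 and 452 TPM at 0 h, 355 and 438 at 0.5 h, 272 and 496 at 1 h, 311 and 375 at 2 h, 184 and 149 at 4 h and 63.7 and 67.3 at 6 h. The induced libraries were below the uninduced ones at each time but 1 h, where the 2 uninduced libraries lay far apart. CITED4 had the lowest level difference of this role, -0.86 on the log2 scale (SE 0.117, adjusted p = 0.00126). CITED2 had the steepest induced slope of the role, -0.88 log2 per hour (SE 0.0485, adjusted p = 5.6e-09), with 145 and 167 TPM at 0 h and 4.77 and 5.33 TPM at 6 h in induced cells, and 84.2 and 129.6 TPM at 0 h and 7.39 and 9.60 TPM at 6 h in uninduced cells. Induced CITED2 was above uninduced CITED2 up to 1 h and below it from 2 h on.

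BHLHE40 is a helix-loop-helix repressor that takes part in the circadian clock and the hypoxia response. In induced libraries BHLHE40 had 942 and 1154 TPM at 0 h, 1106 and 1025 at 0.5 h, 963 and 1068 at 1 h, 812 and 824 at 2 h, 269 and 309 at 4 h and 163 and 161 at 6 h. In uninduced libraries BHLHE40 had 718 and 718 TPM at 0 h, 838 and 705 at 0.5 h, 853 and 763 at 1 h, 604 and 619 at 2 h, 286 and 239 at 4 h and 155 and 117 at 6 h. Induced BHLHE40 was above uninduced BHLHE40 without overlap at each time but 4 h, and its level difference was 0.34 (SE 0.059, adjusted p = 0.00429). Over 0.5 to 4 h its slopes were -0.55 log2 per hour in induced and -0.47 in uninduced cells, and their difference did not pass (-0.08, adjusted p = 0.781). TGIF1, a homeobox repressor of the TGF-beta pathway, fell by a slope of -0.77 per hour on the log2 scale in induced cells (SE 0.0333, adjusted p = 8.6e-10) and was lower there in level (-0.32, adjusted p = 0.00301). MYC, the member with the highest mean TPM at 0 h in both arms, stood at 4107 and 3094 TPM at 0 h and 506 and 314 TPM at 6 h in induced cells, and at 3972 and 3799 TPM and 814 and 506 TPM at these times in uninduced cells. Its level difference was -0.32 (adjusted p = 0.148 in limma), with replicate 1 above replicate 2 in each group except uninduced cells at 0.5 h. ATF3, a stress-induced repressor, and NR4A1, an orphan nuclear receptor, had level differences of 0.04 and 0.41 (adjusted p = 0.83 and 0.215).

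**Figure D4:**
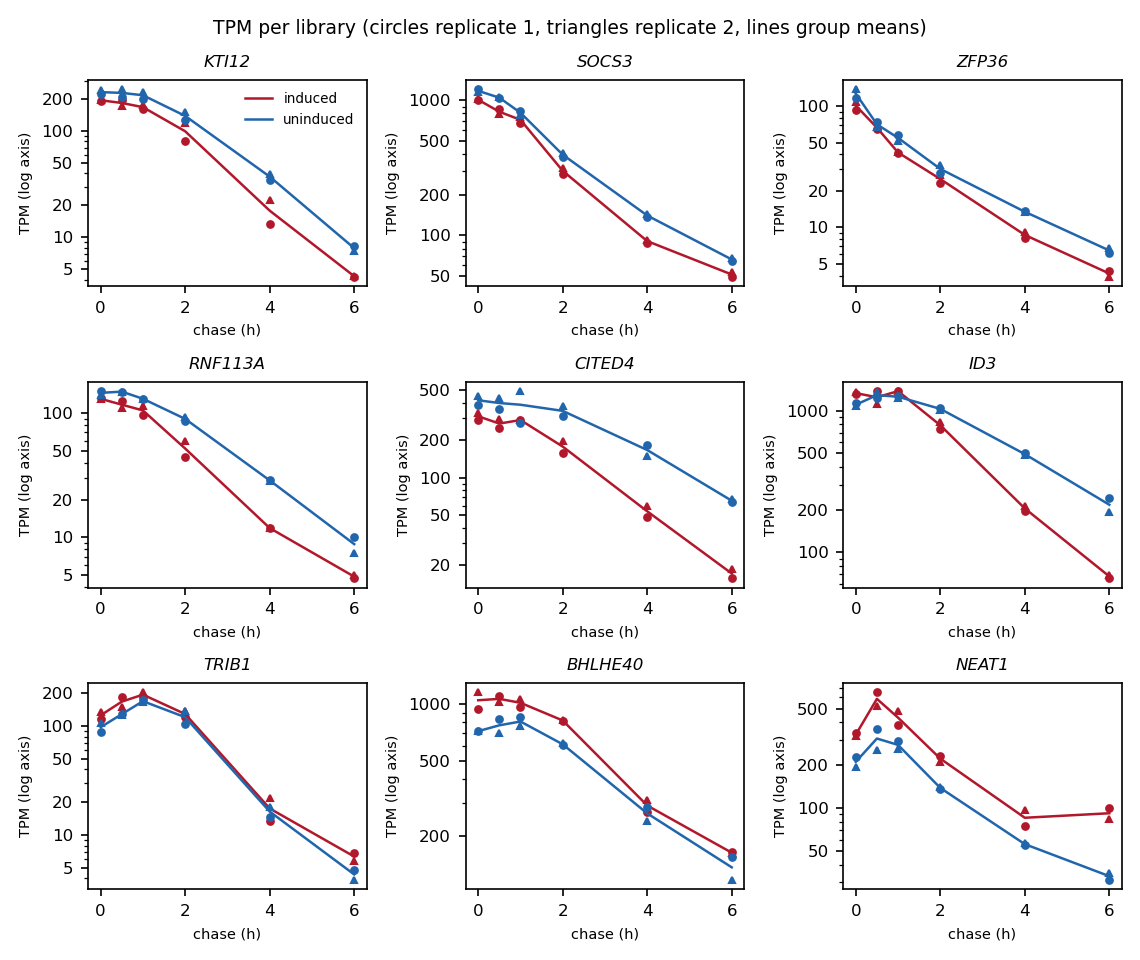
TPM (log axis) against hours of chase for 9 members, with induced libraries in red and uninduced libraries in blue, circles for replicate 1, triangles for replicate 2, and lines through the group means (n = 2). KTI12, SOCS3, RNF113A and CITED4 run lower in induced cells for most of the chase, ID3 crosses between 1 h and 2 h, and BHLHE40 and NEAT1 run higher in induced cells.

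The general transcription machinery and chromatin factors were 4 members. All of them fell in both arms and all were lower in induced cells, where 5.52% of all genes were lower. MED26 and MED9 are Mediator subunits, and their level differences were -0.42 (SE 0.0655, adjusted p = 0.00271) and -0.29 (SE 0.0842, adjusted p = 0.0439). ING1, which reads a methylated histone mark at active promoters, had 20.9 and 19.2 TPM in induced and 36.2 and 39 TPM in uninduced cells at 4 h, and a level difference of -0.45 (SE 0.0524, adjusted p = 0.000493). BRF2, a subunit of an RNA polymerase III initiation factor, fell with an induced slope of -0.41 log2 per hour and was lower by a level difference of -0.39 (adjusted p = 0.00142). ING1 and BRF2 are among the members that overlap another protein-coding gene.

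Factors of RNA processing, RNA decay, tRNA modification and the ribosome were 16 members. All fell in both arms, and 12 were lower in level in induced cells, where 5.52% of all genes were lower. KTI12 is the human relative of a yeast protein that works with Elongator in the modification of tRNA. In induced libraries KTI12 had 194 and 196 TPM at 0 h, 198 and 171 at 0.5 h, 161 and 175 at 1 h, 81.4 and 118 at 2 h, 13.2 and 22.5 at 4 h and 4.26 and 4.35 at 6 h. In uninduced libraries KTI12 had 224 and 242 TPM at 0 h, 211 and 248 at 0.5 h, 200.3 and 236 at 1 h, 126 and 152 at 2 h, 34.7 and 39.9 at 4 h and 8.37 and 7.45 at 6 h. The induced values were below the uninduced ones at every time without overlap. KTI12 had the steepest induced slope of all members, -0.93 per hour on the log2 scale (SE 0.0451, adjusted p = 2.08e-09), and a level difference of -0.56 (SE 0.111, adjusted p = 0.00837).

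RNF113A is a ubiquitin ligase of the spliceosome. In induced libraries RNF113A had 131 and 129 TPM at 0 h, 124 and 110.0 at 0.5 h, 96.3 and 114 at 1 h, 44.3 and 59.5 at 2 h, 11.8 and 11.9 at 4 h and 4.69 and 4.97 at 6 h. In uninduced libraries RNF113A had 151 and 140.3 TPM at 0 h, 149 and 149 at 0.5 h, 131 and 130.2 at 1 h, 86.1 and 93.7 at 2 h, 29 and 28.5 at 4 h and 10.1 and 7.52 at 6 h. Here too the arms did not overlap at any time, and the level difference was -0.67 (SE 0.0663, adjusted p = 0.000287). ZNHIT2, which acts in the assembly of a spliceosomal particle, was lower by -0.65 (SE 0.0693, adjusted p = 0.000405). RPP38, a protein of RNase P and RNase MRP, was lower by -0.49 (adjusted p = 0.00617), RRS1, a ribosome assembly factor, by -0.40 (adjusted p = 0.000605), and PELO, which rescues stalled ribosomes, by -0.34 (adjusted p = 0.00689). The 4 that did not pass in level were PARS2 (-0.14), FAM46B (-0.21), MOCS3 (-0.21) and DDX28 (-0.29).

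ZFP36 and BTG2 are mRNA decay factors themselves. ZFP36 binds AU-rich elements and recruits CCR4-NOT, and BTG2 is a relative of TOB2 that also binds CCR4-NOT. In induced libraries ZFP36 had 92.8 and 109 TPM at 0 h, 65.2 and 67.5 at 0.5 h, 40.7 and 42.1 at 1 h, 23.2 and 26.8 at 2 h, 8.24 and 9.08 at 4 h and 4.41 and 3.92 at 6 h. In uninduced libraries ZFP36 had 116 and 137 TPM at 0 h, 74.2 and 67.2 at 0.5 h, 58.1 and 51.2 at 1 h, 28 and 32.6 at 2 h, 13.6 and 13.3 at 4 h and 6.12 and 6.77 at 6 h. The fall was already large at 0.5 h and 1 h in both arms, and the arms overlapped only at 0.5 h. Over 0.5 to 4 h ZFP36 had slopes of -0.77 log2 per hour in induced and -0.66 in uninduced cells, a difference of -0.11 (adjusted p = 0.549), and a level difference of -0.33 (adjusted p = 0.00492). In induced libraries BTG2 had 48.1 and 51.3 TPM at 0 h, 29 and 28.5 at 0.5 h, 18.6 and 23.8 at 1 h, 8.41 and 12.8 at 2 h, 1.63 and 3.91 at 4 h and 1.28 and 1.00 at 6 h. In uninduced libraries BTG2 had 56.6 and 53.1 TPM at 0 h, 37.3 and 33.4 at 0.5 h, 29.8 and 28 at 1 h, 15.9 and 18.7 at 2 h, 5.77 and 5.48 at 4 h and 2.21 and 2.23 at 6 h. BTG2 was lower in both induced libraries at every time, with a level difference of -0.57 (SE 0.125, adjusted p = 0.0134).

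Among 13 signalling inhibitors, receptors and secreted factors, all fell in both arms. In level 6 were lower in induced cells, where 5.52% of all genes were lower. SOCS3 blocks cytokine signalling through JAK kinases. In induced libraries SOCS3 had 998 and 1020.4 TPM at 0 h, 859 and 787 at 0.5 h, 683 and 751 at 1 h, 283 and 318 at 2 h, 88.5 and 93.1 at 4 h and 49.5 and 53.3 at 6 h. In uninduced libraries SOCS3 had 1205 and 1144 TPM at 0 h, 1033 and 1059 at 0.5 h, 837 and 781 at 1 h, 383 and 409 at 2 h, 136 and 145 at 4 h and 65 and 67.9 at 6 h. SOCS3 was lower in both induced libraries at every time, with a level difference of -0.39 (SE 0.0468, adjusted p = 0.00067) and an induced slope of -0.76 log2 per hour. DDIT4, a stress-induced inhibitor of mTORC1, was lower by -0.35 (adjusted p = 0.0309), SPSB1, an adaptor of a ubiquitin ligase, by -0.32 (adjusted p = 0.0186), and PTGER4, a prostaglandin E2 receptor, by -0.22 (adjusted p = 0.0246).

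Some members of this role stood higher early in the chase than at 0 h. TRIB1 is a pseudokinase that brings substrates to the ubiquitin ligase COP1. In induced libraries TRIB1 had 116 and 134 TPM at 0 h, 183 and 151 at 0.5 h, 184 and 203 at 1 h, 120.5 and 137 at 2 h, 13.3 and 21.7 at 4 h and 6.86 and 5.83 at 6 h. In uninduced libraries TRIB1 had 88 and 107 TPM at 0 h, 129.6 and 127 at 0.5 h, 172 and 165 at 1 h, 104 and 136 at 2 h, 14.6 and 18.2 at 4 h and 4.81 and 3.89 at 6 h. Both arms had their highest mean at 1 h, though the change over the first hour did not pass in induced cells (0.63, adjusted p = 0.213), and induced TRIB1 was above uninduced TRIB1 without overlap up to 1 h. Its level difference was 0.18 (adjusted p = 0.24), and its change from 2 to 6 h in induced cells was -4.14 (SE 0.204, adjusted p = 5.95e-07), the largest fall among the members after KTI12 (-4.22). PPP1R3C, which targets a phosphatase to glycogen, had 57.1 and 59 TPM at 0 h and 97.8 and 72.7 TPM at 0.5 h in induced cells, and 38.3 and 46.4 TPM at 0 h and 66.1 and 67.9 TPM at 0.5 h in uninduced cells, and a level difference of 0.10 (adjusted p = 0.668).

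Small GTPases and factors of the cytoskeleton and of membrane traffic were 13 members. All fell in both arms, and 10 were lower in induced cells, where 5.52% of all genes were lower. RHOB is a short-lived GTPase of endosomes and actin. In induced libraries RHOB had 1297 and 1343 TPM at 0 h, 1125 and 984 at 0.5 h, 922 and 987 at 1 h, 502 and 585 at 2 h, 141 and 207 at 4 h and 66.5 and 80.5 at 6 h. In uninduced libraries RHOB had 1232 and 1353 TPM at 0 h, 1126 and 1307 at 0.5 h, 942 and 1099 at 1 h, 747 and 887 at 2 h, 280.2 and 401 at 4 h and 143 and 159 at 6 h. The arms overlapped at 0 h and 1 h and did not overlap at 0.5 h and from 2 h on, with a level difference of -0.46 (SE 0.097, adjusted p = 0.0109). TBCC, a tubulin folding cofactor, had an induced slope of -0.86 per hour on the log2 scale (SE 0.0378, adjusted p = 9e-10) and a level difference of -0.53 (adjusted p = 0.0079). HPS6, a subunit of a complex for lysosome-related organelles, changed by -3.93 from 2 to 6 h in induced cells (SE 0.184, adjusted p = 5.32e-07) and was lower by -0.55 (adjusted p = 0.00317). RAB20, MID1IP1 and C17orf59 were lower by -0.56, -0.52 and -0.51 (adjusted p = 0.00411, 0.000374 and 0.0167). MYLIP, GCC1 and PLEKHF1 did not pass in level, at -0.14, -0.21 and -0.30.

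Of 11 stress response and apoptosis factors, all fell in both arms and 8 were lower in induced cells, where 5.52% of all genes were lower. CHAC1 breaks down glutathione and is induced by the unfolded protein response. In induced libraries CHAC1 had 149 and 139.7 TPM at 0 h, 161 and 151 at 0.5 h, 155 and 134 at 1 h, 71.4 and 74.1 at 2 h, 13.2 and 15.6 at 4 h and 5.37 and 5.10 at 6 h. In uninduced libraries CHAC1 had 219.7 and 157 TPM at 0 h, 215 and 188 at 0.5 h, 202 and 158 at 1 h, 118 and 102 at 2 h, 31.3 and 29.1 at 4 h and 9.88 and 9.50 at 6 h. Both induced libraries were below both uninduced libraries at every time, and the level difference was -0.57 (SE 0.0688, adjusted p = 0.000663). FKBPL, a relative of the immunophilins, had 5.76 and 5.62 TPM in induced and 19.9 and 14.7 TPM in uninduced cells at 4 h and the lowest level difference of this role, -0.78 (SE 0.0972, adjusted p = 0.000782). BBC3, the proapoptotic protein PUMA, and MCL1, an antiapoptotic relative of BCL2, were both lower, by -0.34 (adjusted p = 0.0111) and -0.23 (adjusted p = 0.0181). FADD, an adaptor of death receptors, and DNAJB1, a partner of HSP70, were lower by -0.47 (adjusted p = 0.00378) and -0.35 (adjusted p = 0.00214). MCL1 had the shallowest slope of the coding members in uninduced cells, -0.20 log2 per hour over 0.5 to 4 h, with 1450.3 and 1766 TPM at 0 h and 876 and 872 TPM at 4 h, while in induced cells it had 1626 and 1612 TPM at 0 h and 507 and 558 TPM at 4 h.

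The 4 cell cycle and checkpoint members all fell and were all lower in induced cells, where 5.52% of all genes were lower. GSG2, the kinase haspin that marks histone H3 in mitosis, was lower by -0.56 (SE 0.0558, adjusted p = 0.000287). MAD2L1BP, which turns off the spindle checkpoint, was lower by -0.49 (SE 0.0598, adjusted p = 0.00067), CDKN1B, the CDK inhibitor p27, by -0.45 (SE 0.0702, adjusted p = 0.00243), and HUS1B, a relative of a DNA damage clamp subunit, by -0.37 (SE 0.0932, adjusted p = 0.0269). CDKN1B had 27.5 and 31.4 TPM in induced and 61.2 and 59.9 TPM in uninduced cells at 4 h. GSG2, MAD2L1BP and HUS1B overlap another protein-coding gene, and CDKN1B does not.

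The remaining 13 coding members, without a role assigned here, all fell in both arms. In level 7 were lower in induced cells, where 5.52% of all genes were lower. In induced libraries LENG9 had 21.7 and 25 TPM at 0 h, 16.5 and 19.4 at 0.5 h, 13.4 and 13 at 1 h, 5.54 and 6.65 at 2 h, 1.53 and 2.42 at 4 h and 0.520 and 0.850 at 6 h. In uninduced libraries LENG9 had 36.2 and 35.4 TPM at 0 h, 28.2 and 31.5 at 0.5 h, 26.2 and 28.7 at 1 h, 14.2 and 15.8 at 2 h, 3.60 and 3.72 at 4 h and 1.39 and 0.960 at 6 h. LENG9 was lower in both induced libraries at every time and had the lowest level difference of the set, -0.89 (SE 0.0787, adjusted p = 0.000144), while its slopes over 0.5 to 4 h were -0.77 log2 per hour in induced and -0.81 in uninduced cells, a difference of 0.04 (adjusted p = 0.898). CCDC71 and HDHD3 followed with -0.71 (SE 0.105, adjusted p = 0.00198) and -0.65 (SE 0.111, adjusted p = 0.00394). FAM110D was at -0.06 (adjusted p = 0.855), and its induced slope was -0.67 log2 per hour.

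The 6 noncoding members differed among themselves. NEAT1 builds nuclear paraspeckles, and was measured here in cytoplasmic RNA. In induced libraries NEAT1 had 334 and 321 TPM at 0 h, 649.6 and 519.9 at 0.5 h, 385 and 478 at 1 h, 234 and 211 at 2 h, 74.5 and 96.2 at 4 h and 99.4 and 84.2 at 6 h. In uninduced libraries NEAT1 had 228 and 194 TPM at 0 h, 359 and 256 at 0.5 h, 294 and 261 at 1 h, 136 and 141 at 2 h, 54.9 and 56.5 at 4 h and 31.3 and 35 at 6 h. NEAT1 was higher in both induced libraries at every time, with a level difference of 0.71 (SE 0.0875, adjusted p = 0.000755). Its mean was highest at 0.5 h in both arms, and in induced cells it was no lower at 6 h than at 4 h in the mean, with an induced slope over 0 to 6 h of -0.45 per hour on the log2 scale (SE 0.0608, adjusted p = 1.83e-05). LOC284454 and LOC284801 fell in both arms, with induced slopes of -0.58 and -0.65. Their level differences were 0.44 and -0.25 (adjusted p = 0.114 and 0.487 in limma). LOC284454 first rose, to 288% of its 0 h mean at 0.5 h in induced and 273% in uninduced cells. At 2 h it was at 99.7% in induced and 99.4% in uninduced cells.

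In induced libraries RNU6ATAC had 0 and 104 TPM at 0 h, 7.57 and 49.8 at 0.5 h, 6.01 and 15 at 1 h, 4.96 and 23.3 at 2 h, 0 and 46.9 at 4 h and 0 and 3.63 at 6 h. In uninduced libraries RNU6ATAC had 51.5 and 22.1 TPM at 0 h, 22 and 30.6 at 0.5 h, 9.91 and 14.5 at 1 h, 7.87 and 29.9 at 2 h, 9.59 and 4.06 at 4 h and 0 and 0 at 6 h. RNU6ATAC, an RNA of the minor spliceosome, was thus listed at 0 in some induced libraries of replicate 1 beside values up to 104 TPM in replicate 2, and no level or fold is drawn from it. SCARNA4 and SCARNA8, guide RNAs of Cajal bodies, ranged from 0 to 28.4 TPM and from 0 to 14.4 TPM over the induced libraries, and from 0 to 22.8 TPM and from 0 to 18.2 TPM over the uninduced libraries. In the uninduced 6 h libraries that gave their scores, RNU6ATAC and SCARNA8 were listed at 0 in both replicates, and SCARNA4 at 0 and 3.92 TPM.

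Wider lists of related genes, chosen with earlier results of these data known, hold the members beside other genes of the same kind. Over all genes 27.9% fell and 40.0% rose along the induced arm, and 5.52% were lower and 5.57% higher in level in induced cells. Of 48 measured early-response transcription regulators, 35 fell and 3 rose along the induced arm, and 11 were lower and 2 higher in level in induced cells, with a median level difference of -0.10, against 0.06 over all genes. Of 43 signalling feedback inhibitors, 35 fell and 2 rose along the induced arm, 2 were lower in level and none was higher. SOCS3, TRIB1, RGS2 and BAMBI are the members among them. Of 23 measured genes on a list of mRNA decay regulators with short-lived mRNAs, 12 fell and 4 rose, with 2 lower and 2 higher in level. That list was drawn up for short life, so nothing is read from its falling count. Of 38 p53 targets and apoptosis regulators, 20 fell and 9 rose, with 7 lower and 2 higher. The members of the set are included in the counts of these lists. Of 51 factors of RNA polymerase II elongation and splicing control none is a member, and 16 fell while 22 rose. The small GTPase list had 12 of 24 falling and 6 rising, 6 lower and none higher, and the list of cyclins and CDK inhibitors had 6 of 26 falling and 11 rising, 5 lower and 1 higher.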

How the data were processed

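The authors deposited 1 table of TPM for 48009 RefSeq transcripts in 24 libraries, and the values of each library share 1 total, so depth and counting error are unknown. Per the submitters' processing notes, RSEM 1.3.0, Bowtie2, Trim Galore and hg19 were used, with no role or order stated, and strand use is not given in the sources used here. TPM was summed per gene symbol, and 3 transcripts without a symbol, all at 0, were left out. Every column of values was mapped to a library.

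Log2 of (TPM + 1), so a pseudocount of 1, was fitted for the 13416 genes averaging 1 TPM or more, using R 4.3.3 and limma 3.58.1 with a variance trend and no replicate term, two-sided, adjusted by the Benjamini-Hochberg method over these genes at a threshold of 0.05. The induced slope used the 12 induced libraries (10 residual degrees of freedom), the uninduced slope, the slope difference and the level difference used the 16 libraries at 0.5, 1, 2 and 4 h, and changes within the induced arm used group means. Differences are induced minus uninduced. Fold changes of low genes are understated on this scale. Pseudocounts of 0.1 and 5, filters, scalings, a replicate block, other times and leaving out each library were the alternatives, and 1 alternative, without the induced 0 h and 0.5 h libraries of replicate 2, was added after seeing the data. The methods were tested on simulated data.

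The members and the gene lists were chosen with earlier results of these data known, and roles were assigned after the members were known. Genes were named by rule: the lowest scores, those at the limit, the members with the largest called values or smallest p in each comparison, the lowest scores in each list and the highest induced slopes. Members printed beside these were added as examples of their role, with their values seen. All 100 members matched RefSeq symbols (GRCh38.p14), which gave names, neighbours and promoters.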

Additional observations from a re-analysis of the deposited data

How the results depend on the processing

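No median of the members changed its sign under any alternative run. Nor did any estimate of the members named for the largest called values or smallest p in a comparison. The signs of other estimates were not checked. The 97 members falling along the induced arm were all called under every alternative that kept them. So were 91 of the 97 in the uninduced arm at 0.5 to 4 h and 96 of the 97 between 2 and 6 h. In level difference 43 of the 59 called members kept their call. That count leaves out the fit over all 6 times. Counts ranged from 94 to 98 for the induced slope and from 94 to 97 for the uninduced slope and for the change from 2 to 6 h, where restriction to protein-coding transcripts left 94 members to test. Members lower in the slope difference (0 as reported) numbered 1 under quantile normalization, 1 with protein-coding transcripts only and 4 with all 6 times, and 0 to 1 with a library left out. Members higher in level (2 as reported) numbered 5 with all 6 times, and 2 to 4 with a library left out. The fits with all 6 times use the libraries that chose the set, and nothing is read from their counts. Members falling over the first hour (1 as reported) numbered 2 with a pseudocount of 5, 2 with median-of-ratios scaling, 4 under quantile normalization and 4 with protein-coding transcripts only, and 0 to 1 with a library left out. The cause of these shifts was not tested. Calls over all genes were counted only for alternatives with other times, so the other counts here and below have no such share beside them.

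With the replicate number as a block, 4 members were higher in level and 10 fell over the first hour, and every other count stayed within 1.5 times its value. Deviations of same-numbered libraries correlated with r between -0.04 and 0.25 over 66 pairs of groups, with a median of 0.097 and 29 of them over 0.1. The main fits did not pair the libraries by number. These weak, mostly positive values do not settle whether the numbers pair them. Quantile normalization, protein-coding transcripts only and removal of the 3 abundant noncoding RNAs moved the median of all genes by -0.12, -0.10 and -0.09 in the change from 0 to 1 h, and by 0.12, -0.08 and -0.13 in the change from 2 to 6 h, in which the members still fell. Models of group means could not be fitted on 1 replicate series alone, since no residual degrees of freedom were left.

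TPM of unknown depth gives no counting error, and with 2 libraries per group the tests rest on variance shared across genes. Genes whose levels reached only a few TPM late in the chase are limited further by the pseudocount, which shrinks their differences between the arms.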

Other observations

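Other gene families, listed with earlier results of these data known, hold further members of the set. A list drawn by symbol for C2H2 zinc finger families, outside those left out by name, had 87 measured genes. Of these, 57 fell and 10 rose along the induced arm. SNAI1, ZXDA, SNAI2 and HIC2 are members among them. The member ZFP36 is counted there by its symbol only, since it is an RNA-binding protein and not of the C2H2 type. Of 45 homeobox genes outside the HOX clusters, 25 fell and 7 rose, and 12 were lower and none higher in level in induced cells, with TGIF1 as the member. Of 84 genes of the FOX, SOX, GATA, TBX, ETS, IRF and nuclear receptor families, 39 fell and 21 rose, with NR4A1, FOXC2 and FOXB1 as members, and of 41 helix-loop-helix genes 14 fell and 9 rose. Ubiquitin ligases and their adaptors, 281 measured, had 106 falling and 89 rising, and 30 lower and 8 higher in level, with SOCS3, RNF113A, KCTD21, SPSB1 and TRIM13 as members. Secreted ligands and matricellular factors, 53 measured, had 27 falling and 6 rising, with 1 lower and 4 higher in level, and the peptide hormone ADM was the member. Chromatin modifiers stood the other way, with 83 of 163 rising and 29 falling along the induced arm, and ING1 was the member. Structured noncoding RNAs, 48 measured, had 13 falling and 9 rising, and 4 lower and 7 higher in level. RNU6ATAC, SCARNA8, NEAT1 and SCARNA4 are the members among them. Over all 13416 genes 27.9% fell and 40.0% rose along the induced arm, and 5.52% were lower and 5.57% higher in level in induced cells.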
